A study of Mus musculus with 9 samples.

Results

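Daily systemic dexamethasone for 2 weeks was compared with saline over the same time in the olfactory mucosa, the lining of the nose that holds the olfactory sensory neurons. The mice were male C57BL/6, 6 to 8 weeks old and wild type. Control mice (Ctrl) were given saline for 2 weeks. WK2 mice were given dexamethasone at 1 mg/kg into the peritoneum each day for 2 weeks. The study held 27 mice, with 9 in each of 3 groups, and 3 samples a group were put on single-colour arrays after being picked for their expression of olfactory marker protein (Omp). Omp was thus part of the selection and its level is no independent finding. Whether the selection also moved other genes of mature neurons was not tested. The 6 arrays titled as control or 2 week samples are described here, of 9 in all, and the 3 arrays of mice given dexamethasone for 1 day (D1) enter the fit only through its shared estimate of the spread. Whether each sample is 1 mouse or a pool is not stated, so the p-values measure sample-to-sample spread that may be technical only.

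Dexamethasone is a synthetic agonist of the glucocorticoid receptor (Nr3c1), a transcription factor that waits in the cytoplasm bound to chaperones and enters the nucleus with its ligand. There it binds DNA at response elements or tethers to other factors. Receptors of this kind raise genes such as Fkbp5, Tsc22d3, Per1, Sgk1 and Zbtb16 in many tissues, repress many genes driven by the inflammatory factor NF-kB, and reset the circadian clocks of peripheral organs. The olfactory mucosa renews its neurons throughout life from basal stem cells, so its RNA mixes neurons of all ages with basal cells, sustentacular support cells, Bowman glands, and the vessels, bone, cartilage and immune cells beneath.

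Values are deposited intensities, on a linear scale, and differences are in log2(intensity + 50), WK2 minus control, with the standard error of the limma fit over 9 arrays. The number of arrays limits the precision. Array medians ran from 1202 to 1447. Pearson correlations of log2 values were 0.984 to 0.993 within control, 0.977 to 0.989 within WK2 and 0.959 to 0.990 between the groups. The first principal component, with 50.4% of the variance of the 6 arrays, placed the control arrays at -17.9, -61.9 and -28.1 and the WK2 arrays at 16.4, 34.4 and 57.0. WK2 replicate 1 thus lay nearest to control. Over all features the median difference was 0.14, so the typical feature was slightly higher in WK2, and gene lists are given beside this median. In 4 equal groups from dimmest to brightest, the median was 0.21, 0.24, -0.0069 and 0.022, so the shift lay in the dimmer features. When each member was given the median of its own 25% by brightness, the mean was lower for bright lists. It was 0.018 for mature neurons, 0.029 for immature neurons, 0.028 for sustentacular cells and 0.053 for the clock. By mean, 14809 features lay above control and 8822 below. No defining marker measured was at 0. The dimmest was Myh4 of skeletal muscle, with mean intensities of 56.4 in control and 69.1 in WK2.

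A feature, 1 probe per named gene or an unnamed probe, was called at a Benjamini-Hochberg adjusted p under 0.05 over all 23631 features. There were 379 calls, 1.6% of features. Of these, 101 (0.427%) were higher in WK2 and 278 (1.18%) lower, so that 73.4% of the calls were lower. With median centring the share was 85.6% of 1544 calls, and with array weights 53.2% of 2748. Named genes made up 331 of the calls, 86 higher and 245 lower. All 3 WK2 arrays lay above all 3 control arrays for 23.8% of features and below for 13.8%, together 37.6%. All 379 called features were among these, so for a called gene the lack of overlap adds nothing to the call. Called differences were moderate in size, with a median of 0.99 in log2 units, and 185 reached 2-fold. Calls differed with brightness. The dimmest 25% of features had 11 calls higher and 5 lower, and the brightest 25% had 25 higher and 85 lower. The log2 pseudocount holds down differences of dim probes. In bulk tissue, fewer cells of a type and less RNA per cell cannot be told apart, and this holds for each cell type list below.

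**Figure D1:**
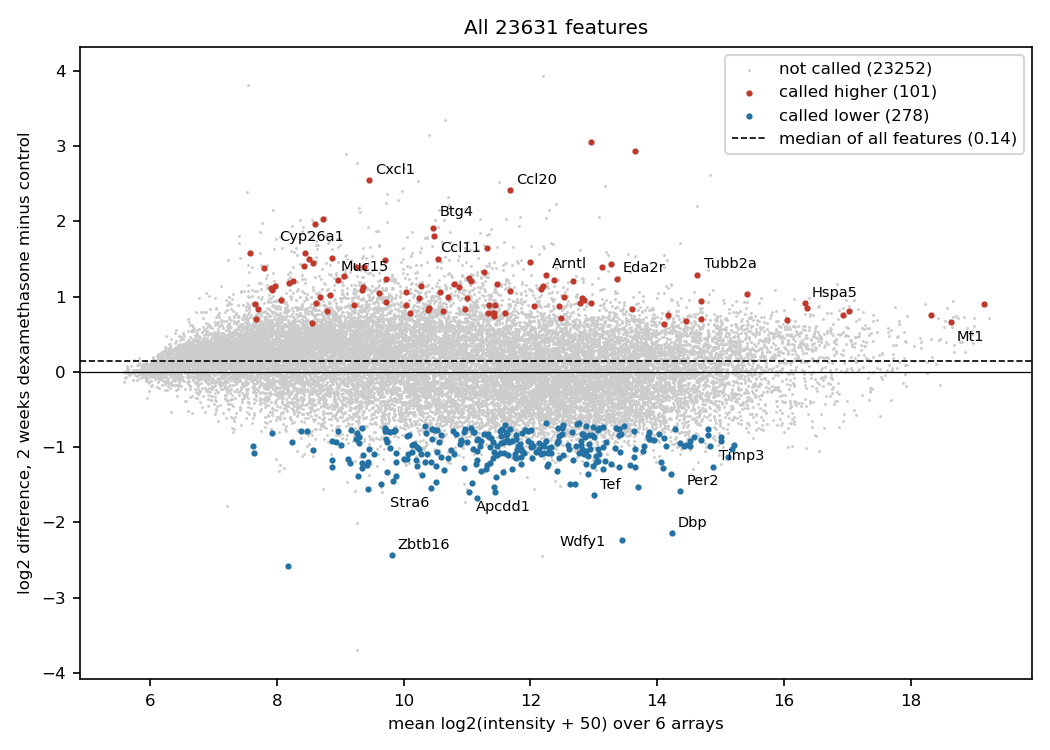
Difference in log2(intensity + 50), WK2 minus control, against mean log2(intensity + 50) over the 6 arrays, 1 point per feature. Red points are the 101 features called higher and blue points the 278 called lower at adjusted p under 0.05; the dashed line is the median of all features, 0.14, and selected genes of the text are named.

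The calls rested on all 9 arrays. Fitted without the D1 arrays, limma called 0 features at adjusted p under 0.05 (smallest 0.0627), although 5787 had an unadjusted p under 0.05, against 7032 (29.8%) in the fit of 9. Leaving out 1 array at a time gave 1 to 966 calls. The count was 966 without WK2 replicate 1, and between 1 and 37 without any 1 of the other 8 arrays. Of the 379 features, 304 kept their call in 1 of these 9 fits and 27 in none. Dbp and Apcdd1 kept theirs in 7, and Tef, Stra6, Wdfy1, Muc15 and Btg4 in 6. Of the 379, 132 were also called with a pseudocount of 16. With a pseudocount of 500 differences of dim genes were smaller, such as 1.57 for Cxcl1, 0.77 for Muc15 and 0.71 for Cyp26a1 (adjusted p = 0.0597), which lost its call. Adjusted p-values named below as "without 1 array" are from the fits that ended the call.

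**Figure D2:**
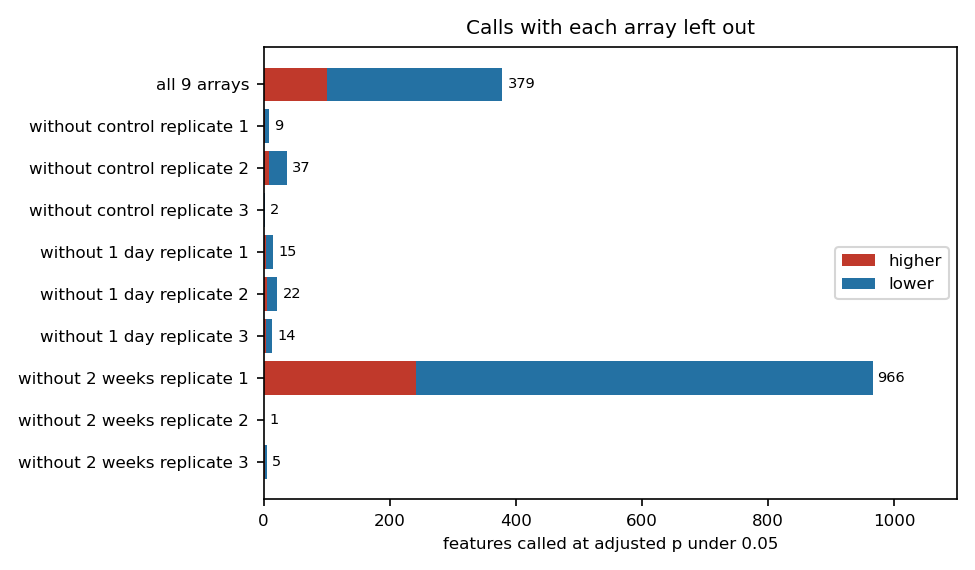
Number of features called higher (red) and lower (blue) at adjusted p under 0.05 with all 9 arrays and with each array left out in turn. The count is 379 with all arrays, 966 without WK2 replicate 1, and 37 or fewer without any other array.

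The circadian clock list had the most calls of any list of regulators, and its members moved in both directions. The clock is a loop in which ARNTL (BMAL1) and CLOCK activate the Per and Cry repressors and output factors such as Dbp, which follow the time of day. Of 21 members measured, 1 rose and 4 fell, and 0.427% and 1.18% of all features were called higher and lower. The list median was -0.47, which is -0.61 from the median of all features and stayed between -0.79 and -0.28 over the 23 alternatives. Dbp, a PAR bZIP output factor, read 38072, 33521.5 and 51268 on the control arrays and 9885, 7005 and 10898 on the WK2 arrays. The lowest control array was over 3 times the highest WK2 array. Dbp fell 4.41-fold, by 2.14 ± 0.22 (adjusted p = 0.0176). Tef, of the same family, read 12012, 16682 and 14723 on the control arrays and 5111, 5087 and 3711 on the WK2 arrays, with no overlap, and fell 3.1-fold (adjusted p = 0.0176). Per2, a repressor of the loop, read 38051, 31294 and 40747 on the control arrays and 14813, 10130.1 and 11750.3 on the WK2 arrays. It fell 3.01-fold (adjusted p = 0.0176), and the WK2 arrays were close to each other.

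Ciart, a repressor of CLOCK and ARNTL, was dim at 657, 863 and 857 on the control arrays and 296, 462 and 246 on the WK2 arrays, without overlap, and fell 2.23-fold (adjusted p = 0.0419). Arntl, the activator, went the other way. It read 3273.5, 3097 and 2775 on the control arrays and 7276, 9584 and 6116 on the WK2 arrays, with every WK2 array well above every control array, and rose 2.45-fold (adjusted p = 0.0278). Members that were not called included Clock, the partner of ARNTL (difference 0.66 ± 0.17, adjusted p = 0.0627), Cry2, a repressor (-1.04 ± 0.26, adjusted p = 0.0611), Csnk1e, a kinase of PER proteins (-1.03 ± 0.31, adjusted p = 0.0784) and Hlf, the third PAR bZIP factor (-0.67 ± 0.22, adjusted p = 0.0922). Their groups did not overlap either, as for 37.6% of all features, and they were named for the smallest p among uncalled members. The call of Ciart was kept only without WK2 replicate 1, that of Arntl only without WK2 replicate 1 or 3, and adjusted p without 1 array was 0.0538 to 0.148. Dbp, Tef and Per2 lost theirs in 2, 3 and 4 of the 9 fits, at 0.0508 to 0.12. In the direct test of WK2 against D1, which called 22 features (0.0931%), Dbp, Tef, Per2, Ciart and Arntl were called as well, but both comparisons share the WK2 arrays. No hour of collection is stated in the labels.

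The promoters of Ciart and Arntl are shown because these genes moved in opposite directions and belong to the arms of the clock read through different elements, the E-box CACGTG and the ROR element with core TAGGTCA. Both windows were also picked for holding their motif, so its presence is no finding. Windows run from 250 bases before to 50 after the RefSeq start (GRCm38.p6), each motif was searched on both strands, and the capitals mark the matches. The E-box occurs in 7.15% of 32851 such windows and the ROR core in 2.61%. Ciart (chr3:95882179-95882478, minus strand) holds 3 E-boxes, whose first bases lie at -116, -58 and -44 from the start site. The Arntl window shown (chr7:113207261-113207560, plus strand, 1 of 2 for the gene) holds 1 ROR core with its first base at 31. The window of Dbp holds neither motif and the 2 windows of Tef at most 1 E-box each and no ROR core. For Per2 no window was available. A match describes the letters and is no evidence of binding, and no match says only that these letters are not in this window.
Ciart: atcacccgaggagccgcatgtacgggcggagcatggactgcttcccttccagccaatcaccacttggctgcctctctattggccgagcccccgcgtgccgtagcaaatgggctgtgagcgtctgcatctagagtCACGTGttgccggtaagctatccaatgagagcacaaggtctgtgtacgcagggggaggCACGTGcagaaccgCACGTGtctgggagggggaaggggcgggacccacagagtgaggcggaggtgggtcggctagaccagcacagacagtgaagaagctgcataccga
Arntl: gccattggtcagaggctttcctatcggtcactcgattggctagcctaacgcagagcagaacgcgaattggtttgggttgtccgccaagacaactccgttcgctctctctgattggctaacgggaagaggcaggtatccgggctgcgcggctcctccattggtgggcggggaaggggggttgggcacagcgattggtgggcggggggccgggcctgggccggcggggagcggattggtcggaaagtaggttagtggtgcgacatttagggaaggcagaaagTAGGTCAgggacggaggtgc

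Of 49 measured glucocorticoid receptor targets, 1 rose and 1 fell, against 0.427% and 1.18% of all features, and the median was -0.059. On all 3 WK2 arrays 9 (18.4%) lay above control and 11 (22.4%) below, against 23.8% and 13.8% of all features. The best known early targets were not among the increases. Zbtb16, a zinc finger transcription factor, read 2851, 1456.5 and 2035 on the control arrays and 461, 289 and 282.5 on the WK2 arrays. It was the called gene with the largest fall among named genes, 5.41-fold (-2.44 ± 0.36, adjusted p = 0.0347). Fkbp5, a co-chaperone that holds the receptor in its low-affinity state, read 4432, 5381 and 4535 on the control arrays and 2587, 2491 and 1096 on the WK2 arrays. Its groups did not overlap and the difference was -1.29 ± 0.29, adjusted p = 0.0551, short of the threshold. Tsc22d3, which encodes the anti-inflammatory leucine zipper GILZ, read 40766, 44463 and 46275 on the control arrays and 44274, 22712 and 45150.3 on the WK2 arrays and overlapped (-0.29 ± 0.28, adjusted p = 0.481). Only WK2 replicate 2 was low, and without it the difference was 0.030.

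Per1, which is both a clock gene and a receptor target, overlapped between groups (-0.58 ± 0.24, adjusted p = 0.148). Sgk1, a kinase that regulates ion transport, lay above control on each WK2 array, at 2125, 2164 and 2239.5 against 1881, 986 and 1842, and was not called (0.51 ± 0.23, adjusted p = 0.17). Mt1, a metallothionein that binds zinc and copper, read 311989, 338636 and 318423 on the control arrays and 470021, 518565 and 546247 on the WK2 arrays and rose 1.58-fold, at an adjusted p of 0.04996, next to the threshold. It was the only member of the 17 metallothionein and zinc handling genes to be called, and 0.427% of all features were called higher. Others that were not called were Tat, an amino acid enzyme (1.30 ± 0.36, adjusted p = 0.0706), Ccn2, a matricellular growth factor (-1.05 ± 0.27, adjusted p = 0.0639), and Mertk, a phagocytic receptor kinase (-0.68 ± 0.19, adjusted p = 0.0727). The Zbtb16 call was kept without WK2 replicate 1 and without D1 replicate 1 and the Mt1 call only without WK2 replicate 1, with adjusted p of 0.053 to 0.148 without 1 array. The Mt1 difference ranged from 0.13 to 0.72 over the alternatives, lowest with quantile normalization (adjusted p = 0.591).

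The Mt1 window (chr8:94178839-94179138, plus strand) is shown because it holds the consensus glucocorticoid response element in capitals, searched as GNACA and TGTNC with any 3 bases between them, which occurs in 0.475% of windows. It lies at -94 to -82 from the start site. The window of Fkbp5 holds no such match, and no window was available for Zbtb16. A match is no evidence of binding.
Mt1: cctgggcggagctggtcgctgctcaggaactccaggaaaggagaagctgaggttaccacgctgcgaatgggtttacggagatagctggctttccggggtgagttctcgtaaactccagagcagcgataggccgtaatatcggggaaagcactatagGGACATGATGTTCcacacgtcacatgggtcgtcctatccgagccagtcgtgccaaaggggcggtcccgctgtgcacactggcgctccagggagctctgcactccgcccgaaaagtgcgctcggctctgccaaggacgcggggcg

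The receptor itself, Nr3c1, read 7296, 8895 and 8706 on the control arrays and 6842, 8524 and 11518.5 on the WK2 arrays. The groups overlapped (0.08 ± 0.21, adjusted p = 0.799), and the sign was negative with median centring (-0.018), array weights (-0.083), without control replicate 1 (-0.0067) and without WK2 replicate 3 (-0.11). None of the 16 measured corticosteroid receptors, chaperones and steroid-metabolising enzymes was called by limma, and 8 had an unadjusted p under 0.05, as did 29.8% of all features. Ncoa1, a coactivator of nuclear receptors, differed by -1.19 ± 0.27, adjusted p = 0.0551, with 15444.5, 11498 and 6768 on the WK2 arrays against 24540.2, 25130.3 and 23581. Ncoa2, its paralog, differed by -0.68 ± 0.21, adjusted p = 0.0855. Serpina6, corticosteroid-binding globulin, differed by 0.96 ± 0.23, adjusted p = 0.0582, and the receptor chaperone Hsp90aa1 by 0.76 ± 0.19, adjusted p = 0.0601. The groups did not overlap for any of these 4 genes, as for 37.6% of all features. They were named for the smallest p in the list.

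Of the chemokines and their partners in the NF-kB response, a few rose. The list of 54 measured NF-kB and chemokine genes had 3 calls, all higher, and 0.427% of all features were called higher. By mean, 42 members were higher in WK2, against 14809 of all 23631 features. All WK2 arrays lay above control for 20 members (37%) and below for 5, against 23.8% and 13.8% of all features. The list median was 0.39, with array medians of 0.098, 0.043 and -0.055 in control and 0.39, 0.27 and 0.43 in WK2. Relative to all features the median stayed positive, from 0.17 to 0.50, over the alternatives. Cxcl1, which attracts neutrophils through CXCR2, was near the dim end in control at 242.5, 251 and 227 and read 2712, 838 and 1970.2 in WK2. WK2 replicate 2 was the lowest of the 3 and still over 3-fold above control. Cxcl1 rose 5.87-fold (2.55 ± 0.36, adjusted p = 0.0326).

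Ccl20, the ligand of CCR6 on lymphocytes and dendritic cells, read 1579.7, 1212 and 1320.1 on the control arrays and 11484, 4532 and 8102 on the WK2 arrays, with the same order of the WK2 arrays. It rose 5.35-fold (adjusted p = 0.0395). Ccl11, an eosinophil attractant, read 637, 1026 and 540.5 on the control arrays and 2673, 2709 and 2474 on the WK2 arrays, with WK2 arrays close together, and rose 3.51-fold (adjusted p = 0.0308). Of those not called, Cxcl2, the paralog of Cxcl1, read 918, 277 and 509.5 in WK2 against 126, 134 and 128 (1.65 ± 0.37, adjusted p = 0.0548). Il33, an epithelial alarmin, differed by 0.60 ± 0.14, adjusted p = 0.0577, the membrane-bound chemokine Cxcl16 by 0.91 ± 0.23, adjusted p = 0.0629 and Cx3cl1, fractalkine, by -0.82 ± 0.20, adjusted p = 0.0607. Cxcl1, Ccl20 and Ccl11 kept their calls in 3, 2 and 3 of the single-array fits, always including the fit without WK2 replicate 1, and had adjusted p of 0.0531 to 0.148 without 1 array.

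The windows of Cxcl1 (chr5:90890995-90891294, plus strand) and Ccl20 (chr1:83116516-83116815, plus strand) are shown because both genes rose and both hold the NF-kB motif, in capitals, searched on both strands as GGG, any 2 bases and TTTCC. It occurs in 1.63% of windows. In Cxcl1 the matches lie at -89 to -80 and -71 to -62 from the start site, and in Ccl20 the match lies at -80 to -71. The window of Cxcl2, which was not called, holds 2 matches, and no window was available for Ccl11. As the windows were picked for the motif, its presence is no finding, and a match is no evidence of binding.
Cxcl1: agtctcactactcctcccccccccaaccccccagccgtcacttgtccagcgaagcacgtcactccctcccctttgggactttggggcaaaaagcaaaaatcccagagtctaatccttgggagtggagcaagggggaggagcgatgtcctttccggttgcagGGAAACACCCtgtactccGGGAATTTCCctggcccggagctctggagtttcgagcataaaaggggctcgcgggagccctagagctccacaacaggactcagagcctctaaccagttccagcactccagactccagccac
Ccl20: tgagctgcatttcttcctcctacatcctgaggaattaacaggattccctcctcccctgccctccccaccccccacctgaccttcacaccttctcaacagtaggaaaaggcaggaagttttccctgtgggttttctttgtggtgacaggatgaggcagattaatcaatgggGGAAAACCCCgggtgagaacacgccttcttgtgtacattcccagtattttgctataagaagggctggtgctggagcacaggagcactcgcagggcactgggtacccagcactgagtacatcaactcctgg

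**Figure D3:**
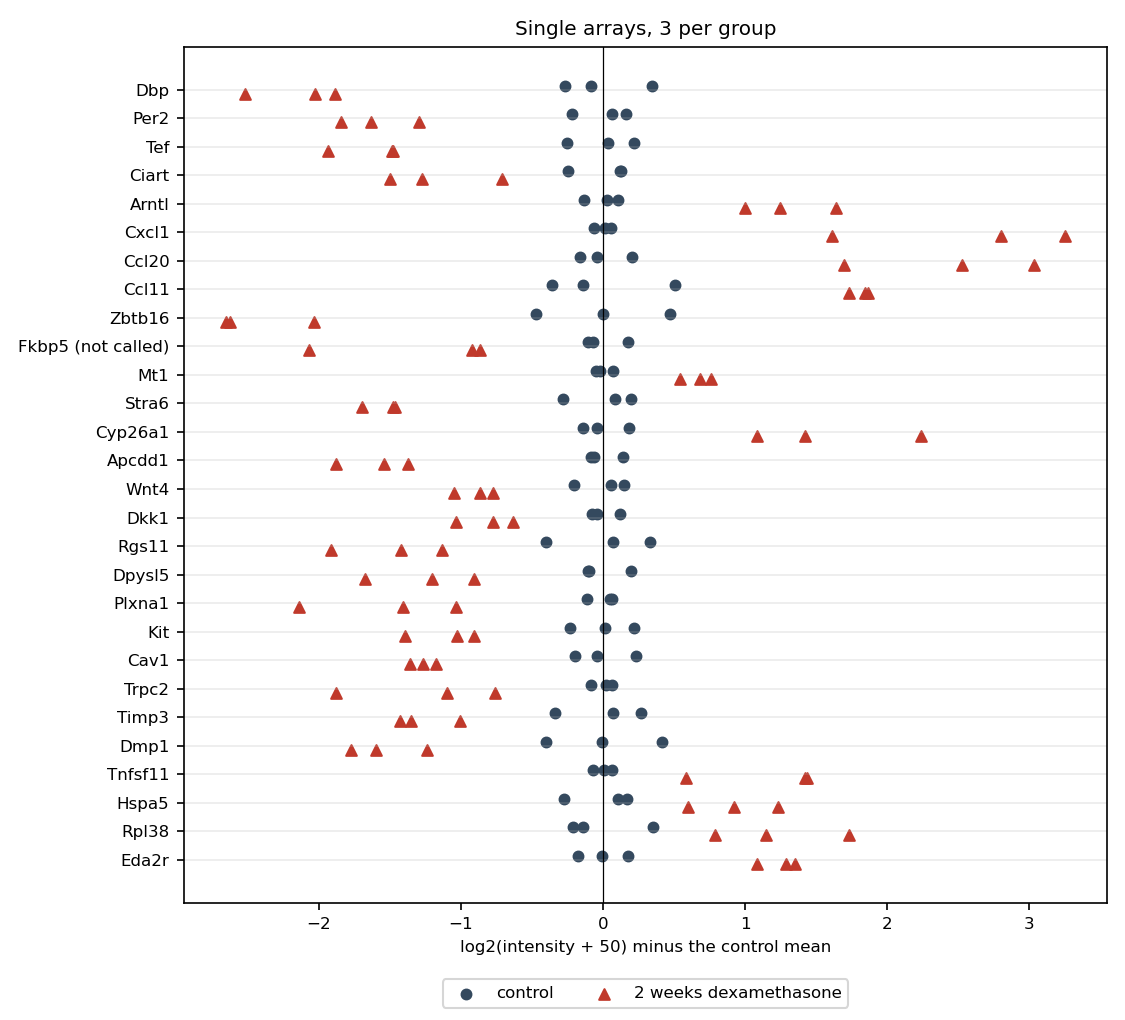
Single-array values of 28 genes, as log2(intensity + 50) minus the gene's control mean, with control arrays as circles and WK2 arrays as triangles, 3 each. The groups do not overlap for any gene shown, which was so for all 379 called features and for 37.6% of all features. Fkbp5 was not called. WK2 arrays spread more than control arrays for Cxcl1 and Ccl20.

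The retinoid list had 1 call in each direction. Retinoic acid, made from retinol, controls differentiation of epithelia. Of 23 measured genes 1 rose and 1 fell, against 0.427% and 1.18% of all features. The median was 0.15, which is 0.0063 from that of all features. Stra6, the receptor that takes up retinol, read 1901, 2669.9 and 2461 on the control arrays and 810.4, 800.3 and 682 on the WK2 arrays, with WK2 arrays close together, and fell 2.92-fold (-1.55 ± 0.18, adjusted p = 0.0176). Cyp26a1, which degrades retinoic acid, was dim at 178, 145 and 132 on the control arrays and 894.5, 375 and 489 on the WK2 arrays and rose 2.99-fold (adjusted p = 0.0427). Bco1, which cleaves beta-carotene, did not overlap (1.78 ± 0.41, adjusted p = 0.0554), and its other probes differed by less, 0.19 and 0.30. Rdh10, a retinol dehydrogenase (-0.62 ± 0.17, adjusted p = 0.0714), and the receptors Rarg (-0.52 ± 0.16, adjusted p = 0.0813) and Rxra (-0.59 ± 0.21, adjusted p = 0.106; -0.23 on its other probe) were not called. Stra6 kept its call in 6 of 9 single-array fits and Cyp26a1 only without WK2 replicate 1, with adjusted p of 0.0617 to 0.148 without 1 array.

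Wnt pathway genes had 3 calls among 45 measured, all lower, and 1.18% of all features were called lower. Apcdd1, a membrane inhibitor of Wnt receptors, read 3397, 3449.5 and 3984 on the control arrays and 1361, 1206 and 945 on the WK2 arrays and fell 3.02-fold (-1.60 ± 0.17, adjusted p = 0.0176). Wnt4, a ligand, read 669, 868 and 812 on the control arrays and 405, 434 and 350.1 on the WK2 arrays and fell by 0.90 ± 0.15 (adjusted p = 0.0395). Dkk1, a secreted inhibitor, read 834, 723.5 and 742 on the control arrays and 428, 475 and 348 on the WK2 arrays and fell by 0.81 ± 0.15 (adjusted p = 0.0419). None of these 3 genes overlapped between groups. Not called were Sfrp5, a secreted antagonist (-0.80 ± 0.18, adjusted p = 0.0551), Lef1, the transcription factor (-0.68 ± 0.18, adjusted p = 0.0643), Nkd2, an intracellular inhibitor (-0.50 ± 0.16, adjusted p = 0.0871; -0.86 on its other probe), and Kremen1, a DKK receptor (-0.76 ± 0.24, adjusted p = 0.0898). The list median was -0.019. Wnt4 and Dkk1 kept their calls only without WK2 replicate 1 and Apcdd1 lost its call in 2 fits, with adjusted p of 0.0508 to 0.148 without 1 array.

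In BMP, TGF-beta and hedgehog signalling, 1 of 41 measured genes fell and none rose, with a median of -0.098. Of all features 1.18% were called lower and 0.427% higher. Fst, follistatin, which binds activins, read 1502, 1528 and 1678 on the control arrays and 730.0, 612 and 844 on the WK2 arrays, without overlap, and fell by 1.07 ± 0.16 (adjusted p = 0.0347). Its call was kept only without WK2 replicate 1 (adjusted p 0.0594 to 0.148 without 1 array). The ligands Tgfb1 (-0.63 ± 0.15, adjusted p = 0.057) and Bmp2 (-0.68 ± 0.16, adjusted p = 0.0594), the effector Smad1 (-0.66 ± 0.17, adjusted p = 0.0656) and the BMP target Id3 (-0.89 ± 0.22, adjusted p = 0.0617) were each lower on all WK2 arrays and were not called. They were named for the smallest p among uncalled members. On all WK2 arrays 8 members (19.5%) lay above control and 7 (17.1%) below, against 23.8% and 13.8% of all features.

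Mature olfactory neurons detect odorants through a cascade of receptor, G protein (Gnal, Gng13), adenylyl cyclase (Adcy3) and cyclic nucleotide gated channel. Of 24 genes measured from this list, 1 fell and none rose, and 1.18% of all features were called lower. On all WK2 arrays 9 (37.5%) lay below control and 3 (12.5%) above, against 13.8% and 23.8% of all features. The median was -0.20, which relative to all features ranged from -0.47 to -0.13 over the alternatives. Rgs11, a regulator of G protein signalling, read 7919.5, 13190.3 and 10997 on the control arrays and 4755, 3879 and 2739 on the WK2 arrays and fell by 1.49 ± 0.24 (adjusted p = 0.0387). The selection marker Omp read 411529, 300267 and 300586 on the control arrays and 501267, 540037.5 and 478899.6 on the WK2 arrays, above control on each WK2 array (0.60 ± 0.19, adjusted p = 0.0852). Gng13 was likewise higher (0.52 ± 0.15, adjusted p = 0.0777), whereas Adcy3 (-0.58 ± 0.23, adjusted p = 0.132) and Gnal (-0.44 ± 0.18, adjusted p = 0.144) were lower on all WK2 arrays. Cnga2, of the gated channel, differed by 0.19 and was not called. By mean, 9 members of the list were higher in WK2 and 15 lower. The neuronal transcription factors Ebf1, Ebf2 and Lhx2 differed by -0.62, -0.78 and -0.58, at adjusted p of 0.0584, 0.0593 and 0.0737.

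Among 23 genes of immature neurons and growth cones, 1 fell and none rose, and 1.18% of all features were called lower. The mean was lower in WK2 for 18 members and higher for 5, against 8822 and 14809 of all 23631 features. Members below control on all WK2 arrays numbered 9 (39.1%) and members above 0, against 13.8% and 23.8% of all features. The list median was -0.27, with array medians of -0.027, -0.058 and 0.1 in control and -0.17, -0.30 and -0.39 in WK2, and stayed below that of all features under each alternative. Dpysl5, a collapsin response mediator of growth cones, read 15626, 15550.5 and 19132 on the control arrays and 8856, 7212 and 5188 on the WK2 arrays and fell by 1.26 ± 0.21 (adjusted p = 0.0395). Crmp1, its relative, read 6993, 5416 and 2167 in WK2 against 10934, 10840.4 and 11594 and was not called (-1.34 ± 0.35, adjusted p = 0.0629). Dclk1, a microtubule-binding kinase (-0.66 ± 0.15, adjusted p = 0.057; -0.22 and -0.50 on its other probes), and Emx2, a homeobox factor (-0.87 ± 0.22, adjusted p = 0.0604), were not called. Gnas differed by -0.99, but its other probes by -0.20 and 0.78. Hdac2, also of this list, differed by 0.37 and was not called.

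Of 23 axon guidance genes, 1 fell, and 1.18% of all features were called lower. Plxna1, a semaphorin coreceptor, read 20739, 23429 and 23243 on the control arrays and 8419.9, 10916 and 5056 on the WK2 arrays and fell by 1.53 ± 0.26 (adjusted p = 0.0395), and its other, dimmer probe differed by -0.42. Tenm4 (-0.94 ± 0.23, adjusted p = 0.0596) and Kirrel3 (-0.63 ± 0.15, adjusted p = 0.0597), adhesion molecules, were not called, nor were Bmpr1b, a BMP receptor (1.12 ± 0.30, adjusted p = 0.0679), and the adhesion molecule Cntn4 (0.75 ± 0.26, adjusted p = 0.104; 0.49 on its other probe). Rgs11, Dpysl5 and Plxna1 kept their calls only without WK2 replicate 1, and adjusted p without 1 array was 0.0641 to 0.148.

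Of 19 genes of globose basal progenitors and neurogenic factors, 1 fell, and 1.18% of all features were called lower. Kit, a receptor kinase of progenitors that mast cells also express, read 3952, 4703 and 5419 on the control arrays and 2453, 2254 and 1739.7 on the WK2 arrays, without overlap, and fell by 1.11 ± 0.17 (adjusted p = 0.0387). The Notch target Hes1 was not called (-0.85 ± 0.22, adjusted p = 0.0629). Neurog1, the proneural factor of neuronal precursors, was higher on each WK2 array (0.72 ± 0.27, adjusted p = 0.122), and its other probe differed by -0.11. Of 16 horizontal basal cell genes, 1 fell, namely Cav1, a caveolin that endothelium also expresses. Cav1 read 580.0, 799.5 and 652.5 on the control arrays and 270.5, 250.3 and 232 on the WK2 arrays and fell by 1.26 ± 0.17 (adjusted p = 0.0265). The keratins Krt14 and Krt5 that define these cells went the other way. Krt14 read 17906, 16034 and 16359 on the control arrays and 25350.0, 23724 and 31196 on the WK2 arrays (0.66 ± 0.15, adjusted p = 0.0551) and Krt5 5024, 6110.4 and 5800.0 on the control arrays and 8922, 10198 and 6905.5 on the WK2 arrays (0.60 ± 0.20, adjusted p = 0.0971), and neither was called. Itgb4, an integrin of the basement membrane, differed by -0.85 ± 0.27, adjusted p = 0.0902.

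No cell cycle gene was called by limma among 31 measured, with 5 at an unadjusted p under 0.05 (29.8% of all features). Their median was -0.013, and relative to all features it changed sign over the alternatives (-0.26 to 0.064). The median itself was 0.071 without control replicate 2, 0.015 without WK2 replicate 3, 0.021 with cyclic loess and 0.15 with array weights. Mki67, the proliferation marker, read 11079, 11541 and 12104 on the control arrays and 8951, 7059.9 and 5169.5 on the WK2 arrays, lower on each WK2 array (-0.74 ± 0.20, adjusted p = 0.0683), while its other probe differed by 0.21. Cenpe, a kinetochore motor, was higher on each WK2 array (0.75 ± 0.21, adjusted p = 0.0707). Kit kept its call only without WK2 replicate 1, and Cav1 also without control replicate 2 and without D1 replicate 2 (adjusted p 0.0527 to 0.148 without 1 array).

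Support cells and glands, which metabolise odorants and coat the epithelium with mucus, had no limma calls among 25 sustentacular and 31 gland genes, of which 6 and 12 had an unadjusted p under 0.05, against 29.8% of all features. Both list medians lay above that of all features under each alternative, by 0.021 to 0.26 and by 0.053 to 0.42. The sustentacular median was 0.26, with 8 members (32%) above control on all WK2 arrays and 1 (4%) below. The gland median was 0.41, with 9 (29%) above and 3 (9.68%) below. Of all features 23.8% lay above and 13.8% below. Gland array medians were 0.069, 0.10 and -0.084 in control and 0.44, 0.38 and 0.33 in WK2. Cyp2g1, the olfactory cytochrome P450, read 469439.8, 373325 and 432992 on the control arrays and 599963, 579679.8 and 677700.3 on the WK2 arrays (0.54 ± 0.16, adjusted p = 0.0743). With quantile normalization its difference was -0.029. Cbr2, a carbonyl reductase, differed by 0.72 ± 0.19, adjusted p = 0.0644 and the glutathione transferase Gstp1 by -0.68 ± 0.19, adjusted p = 0.0729.

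The odorant binding protein Obp1a read 360605, 305016 and 246611 on the control arrays and 576084, 659419 and 501176 on the WK2 arrays, without overlap (0.94 ± 0.22, adjusted p = 0.057), and its relative Obp2a differed by 0.73 ± 0.20, adjusted p = 0.0695. Lyz1, a lysozyme, read 8214.5, 5512 and 7212 on the control arrays and 13189, 16518 and 21064 on the WK2 arrays (1.26 ± 0.32, adjusted p = 0.0608), and Scgb1c1, a secretoglobin of the glands, differed by 0.72 ± 0.16, adjusted p = 0.0547. Other secreted products were lower. Bpifb4 read 93827, 136033 and 130427 on the control arrays and 47344, 79501 and 54230.1 on the WK2 arrays (-1.01 ± 0.23, adjusted p = 0.0551), and the gel-forming mucin Muc5b differed by -0.77 ± 0.23, adjusted p = 0.0806, and by -1.30 on its other probe. The largest difference of the list was that of Lcn4, a lipocalin, which read 4181, 8497 and 1629 on the control arrays and 240160.2, 2262 and 18776.5 on the WK2 arrays and overlapped (2.48 ± 1.81, adjusted p = 0.358). WK2 replicate 1 lay far above the other 5 arrays, and without it the Lcn4 difference was 0.75. Members of the gland list thus stood on both sides of control, none past the threshold. Outside the list, the secretoglobin Scgb2b24 read 511, 319 and 546 on the control arrays and 1131, 2187 and 981.5 on the WK2 arrays and rose by 1.49 ± 0.29 (adjusted p = 0.0476), kept only without WK2 replicate 1 (adjusted p 0.0666 to 0.148 without 1 array).

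Respiratory epithelium borders the olfactory lining and carries motile cilia. Of 30 genes of such cilia, 2 fell and none rose, against 1.18% and 0.427% of all features, and the median was 0.13. Cfap43, an axoneme protein, read 1251, 1084 and 1312 on the control arrays and 689.8, 480.5 and 567 on the WK2 arrays and fell by 1.02 ± 0.18 (adjusted p = 0.041). Rfx2, a transcription factor of ciliogenesis, read 5379.8, 7731 and 7190.0 on the control arrays and 3359, 3992 and 2258 on the WK2 arrays and fell by 1.09 ± 0.22 (adjusted p = 0.0491). Ccdc39, a ruler of the axoneme, was not called (0.62 ± 0.15, adjusted p = 0.0596). Among the brightest genes named by size, Hoatz, needed for motile cilia and flagella, rose 2.71-fold from 5833, 7263.5 and 5000.2 to 11478, 17234 and 21745 (adjusted p = 0.0419), and Ttll6, a tubulin polyglutamylase, fell 2.56-fold from 30000.5, 25878 and 36871 to 14267, 12425 and 9537 (adjusted p = 0.0385). These 4 calls were kept only without WK2 replicate 1, with adjusted p of 0.0585 to 0.148 without 1 array.

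Of 9 measured genes of vomeronasal and other non-canonical sensory neurons, 5 (55.6%) lay below control on all WK2 arrays and 0 above. Of all features 13.8% lay below and 23.8% above. The median of the list was -0.45. Trpc2, the vomeronasal transduction channel, read 944, 1019 and 1049.9 on the control arrays and 573, 443 and 237 on the WK2 arrays and fell by 1.24 ± 0.26 (adjusted p = 0.0492). Gucy1b2, a guanylyl cyclase subunit of the Trpc2-positive cells of the main mucosa, read 919, 976 and 686 on the control arrays and 378, 569 and 384 on the WK2 arrays and just missed the threshold (-0.89 ± 0.19, adjusted p = 0.0502). The vomeronasal G proteins Gnao1 (-0.71 ± 0.22, adjusted p = 0.0827; -0.081 and -0.90 on its other probes) and Gnai2 (-0.77 ± 0.25, adjusted p = 0.0874) were not called. The Trpc2 call was kept only without WK2 replicate 1 (adjusted p 0.0674 to 0.148 without 1 array).

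Of 543 odorant receptors measured, 5 rose and none fell, 437 had a higher mean in WK2, and 146 (26.9%) lay above control on all WK2 arrays against 10 (1.84%) below. Over all features these shares were 23.8% and 13.8%, and 14809 of all 23631 features had a higher mean. Calls higher made up 0.427% of all features. The family median was 0.29, and array medians were 0.19, -0.18 and 0.017 in control and 0.32, 0.051 and 0.49 in WK2, so that WK2 replicate 2 overlapped control. Relative to all features the median stayed positive over the alternatives, from 0.067 to 0.44. Olfr173 read 73.3, 38.4 and 74.1 on the control arrays and 207, 248 and 420.1 on the WK2 arrays and rose by 1.58 ± 0.24 (adjusted p = 0.0349). Olfr592 read 1148, 787 and 1106 on the control arrays and 1897.5, 2476 and 2101 on the WK2 arrays and rose by 1.06 ± 0.19 (adjusted p = 0.0416), and Olfr1009 rose by 0.99 ± 0.20 (adjusted p = 0.0487). Receptor genes of a family resemble each other, and a probe may not tell close relatives apart. The other receptor families were also above control. Vomeronasal receptors had 42 of 48 members above control by mean and a median of 0.34, with no limma call and 11 members at an unadjusted p under 0.05, against 29.8% of all features. Trace amine and taste receptors had 41 of 44 above, a median of 0.39 and 1 call, the bitter taste receptor Tas2r126 (149, 181 and 128 on the control arrays and 389, 428 and 429.8 on the WK2 arrays, a rise of 1.21 ± 0.25, adjusted p = 0.0487). All 4 named receptors kept their calls only without WK2 replicate 1 (adjusted p 0.0561 to 0.148 without 1 array). Of the odorant receptors, 415 lay in the dimmer 50% of features and 513 among the shortest 25% of genes, where the typical gene was also higher in WK2. When each member was given the median difference of all features in its own 25% by brightness, the mean over the family was 0.17 for odorant, 0.19 for vomeronasal and 0.20 for trace amine and taste receptors, below each family's own median. The part of gene length in the family medians was not tested.

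Ribosomal protein and respiratory chain genes were also mostly above control. Of 45 cytosolic ribosomal proteins measured, 41 had a higher mean in WK2, against 14809 of all 23631 features. On all WK2 arrays 23 (51.1%) lay above control and 1 (2.22%) below, against 23.8% and 13.8% of all features. Their median was 0.49, and array medians were 0.11, -0.038 and -0.047 in control and 0.28, 0.35 and 0.75 in WK2, highest on WK2 replicate 3. Only 1 member was called, and 0.427% of all features were called higher. Rpl38, of the large subunit, read 4379, 2940.5 and 3084 on the control arrays and 7627, 11440.3 and 5923 on the WK2 arrays and rose by 1.22 ± 0.26 (adjusted p = 0.0496), a call kept in none of the single-array fits (adjusted p 0.0527 to 0.148). Rps25 (0.74 ± 0.16, adjusted p = 0.0521), Rps26 (0.75 ± 0.17, adjusted p = 0.0551) and Rpl8 (0.62 ± 0.16, adjusted p = 0.0645) were not called. Ribosomal proteins have many near-identical pseudogenes, whose RNA a probe may not tell apart.

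Of 72 subunits of oxidative phosphorylation, 61 had a higher mean, against 14809 of all 23631 features, and the median was 0.40. On all WK2 arrays 33 (45.8%) lay above control and 2 (2.78%) below, against 23.8% and 13.8% of all features. Limma called none of them, and 24 had an unadjusted p under 0.05, against 29.8% of all features. WK2 array medians were 0.19, 0.18 and 0.75, again highest on replicate 3. Cox8b of complex IV (0.93 ± 0.22, adjusted p = 0.0578), Ndufs8 (0.80 ± 0.21, adjusted p = 0.0644) and Ndufa2 (0.74 ± 0.20, adjusted p = 0.0695) of complex I were higher on all WK2 arrays, and Atp5d of the ATP synthase was lower (-1.03 ± 0.27, adjusted p = 0.0647). Over the alternatives the medians relative to all features stayed positive, from 0.21 to 0.55 and from 0.079 to 0.40.

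The median difference was larger for shorter genes. Named genes were divided into 4 equal groups by genomic span in RefSeq (GRCm38.p6), which could be had for 99.9% of them. The median difference was 0.22 in the shortest group, under 6.82 kb, then 0.12 and 0.067, and -0.0075 in the longest, over 48.4 kb. Calls lower numbered 25 in the shortest group and 68, 70 and 82 in the others, while calls higher numbered 29, 22, 16 and 19. Genes called lower had a median span of 27.3 kb, genes called higher 13.6 kb and all named genes 18.9 kb. On single arrays, the median of the shortest group minus that of the longest was 0.20, 0.19 and 0.29 in WK2 and 0.066, -0.015 and -0.025 in control, without overlap. Control arrays are set against their own mean, so their values must lie around 0. The D1 arrays stood at 0.057, 0.13 and 0.055. The size depended on the scaling. The median of the shortest group was 0.062 with quantile normalization, 0.087 with cyclic loess, 0.091 with a pseudocount of 500, 0.12 with median centring, 0.13 without the dimmest 50% of features, and 0.14 with array weights or without control replicate 2. The shortest group minus the longest was 0.22, and 0.14, 0.15 and 0.095 with the first 3 of these. Within each 25% of features by brightness the shortest genes were also above the longest, by medians of 0.22 against 0.15 in the dimmest and 0.13 against -0.083 in the brightest. Of ribosomal proteins, 39 of 45 lie in the shortest group, and of respiratory chain subunits 33 of 72. Leaving out both lists and the chemoreceptors, the shortest group still had a median of 0.20, over 4104 genes. The deposited files give no RNA integrity value per sample, and the part of RNA quality in this relation was not tested.

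**Figure D4:**
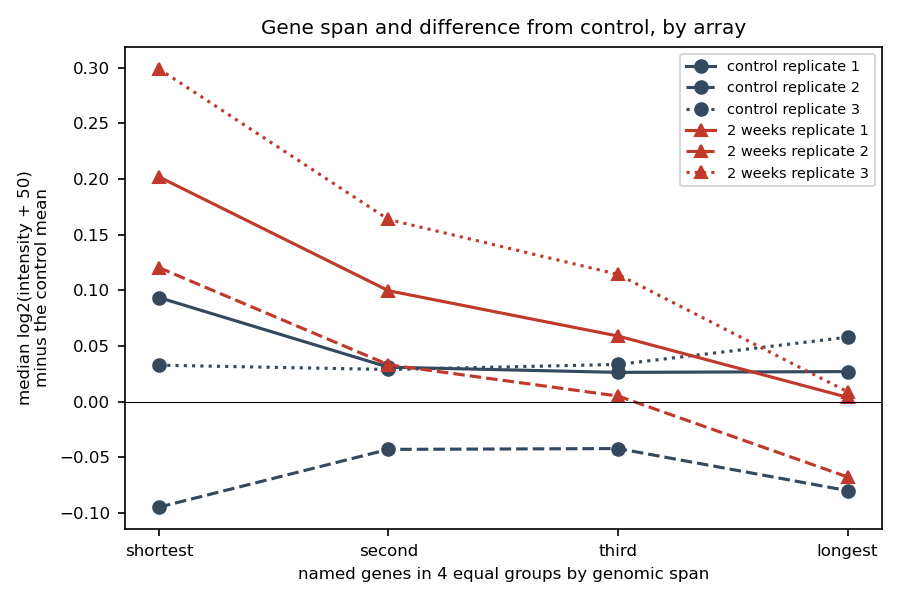
Median of log2(intensity + 50) minus the control mean on each control array (dark circles) and WK2 array (red triangles), for named genes in 4 equal groups by genomic span from shortest to longest. The 3 WK2 lines fall from left to right. They lie at 0.12 to 0.30 in the shortest group and -0.068 to 0.0088 in the longest. Control lines are set against their own mean and so must lie around 0.

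Of 27 genes of the unfolded protein and heat shock responses, 1 rose and none fell, against 0.427% and 1.18% of all features. Their median was 0.071. Hspa5, the endoplasmic reticulum chaperone BiP, read 67654.5, 49749 and 64799 on the control arrays and 90956, 113911 and 141427 on the WK2 arrays and rose by 0.92 ± 0.19 (adjusted p = 0.0493). Dnajc3, a co-chaperone of BiP, was not called (1.06 ± 0.27, adjusted p = 0.0611; 0.56 on its other probe), nor was the small heat shock protein Hspb1 (0.47 ± 0.15, adjusted p = 0.0912). Tmx1, a thioredoxin of the same compartment, outside the list, rose 2.06-fold from 29876, 35859.8 and 26273 to 52288, 66257 and 70965 (adjusted p = 0.0416). Both calls were kept only without WK2 replicate 1 (adjusted p 0.0641 to 0.148 without 1 array).

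Bone and cartilage lie under the mucosa, and glucocorticoids act on both. Of 21 bone genes, 1 rose and 1 fell, against 0.427% and 1.18% of all features. Dmp1, a matrix protein of osteocytes, read 4596, 3484 and 6179 on the control arrays and 1938, 1321 and 1493 on the WK2 arrays, without overlap, and fell by 1.53 ± 0.23 (adjusted p = 0.0349). Tnfsf11, RANKL, which drives osteoclast formation, read 782, 815 and 741 on the control arrays and 2167, 1189.8 and 2188 on the WK2 arrays and rose by 1.14 ± 0.23 (adjusted p = 0.0487). Its decoy receptor Tnfrsf11b was lower on each WK2 array and not called (-0.49 ± 0.19, adjusted p = 0.124). Of 16 osteoclast genes, 1 fell, the chloride exchanger Clcn7 (6633, 7243 and 7337 on the control arrays and 4698, 3289.7 and 2751 on the WK2 arrays, a fall of 1.01 ± 0.21, adjusted p = 0.0493). Calls of Dmp1 were kept without control replicate 2 and without WK2 replicate 1, that of Clcn7 only without the latter and that of Tnfsf11 in no single-array fit (adjusted p 0.0508 to 0.148 without 1 array).

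The cartilage list had the lowest median, -0.51, and 1 call among 24, a lower one, and 1.18% of all features were called lower. Col9a1, a fibril-associated collagen of cartilage, read 4779, 6222 and 5355 on the control arrays and 2523, 2852 and 3175 on the WK2 arrays and fell by 0.92 ± 0.16 (adjusted p = 0.0406), kept only without WK2 replicate 1 (adjusted p 0.0641 to 0.148 without 1 array). This list varied within control. Its array medians were -0.22, 0.38 and -0.12 in control, and Col2a1, the main cartilage collagen, read 1795, 12051 and 2136 there against 2011, 1017 and 560.2 in WK2. Only control replicate 2 was high (-1.73 ± 0.66, adjusted p = 0.122). Relative to all features the list median changed sign over the alternatives (-0.74 to 0.11), and the median itself was 0.071 without control replicate 2 and 0.19 with array weights.

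Extracellular matrix genes had 4 calls among 73, all lower, and 1.18% of all features were called lower. Timp3, an inhibitor of matrix proteases, read 36729, 55929.9 and 48687 on the control arrays and 18150.0, 17243.5 and 23094 on the WK2 arrays and fell by 1.26 ± 0.19 (adjusted p = 0.0347). Col18a1, a basement membrane collagen, read 7116, 5609 and 7202 on the control arrays and 4146, 2853 and 3068 on the WK2 arrays and fell by 0.98 ± 0.18 (adjusted p = 0.0419). Loxl1, a collagen and elastin crosslinking enzyme, fell by 1.11 ± 0.23 (adjusted p = 0.0492), but its other probe differed by 0.094. Fbln2, a fibulin of basement membranes, fell by 0.89 ± 0.17 (adjusted p = 0.0419). The laminin Lamb2 (-0.76 ± 0.17, adjusted p = 0.0538) and fibronectin, Fn1 (-1.10 ± 0.26, adjusted p = 0.0578), were not called, and Thbs2, a thrombospondin, was higher on each WK2 array (0.94 ± 0.21, adjusted p = 0.0543; 0.37 on its other probe). Adamts9, also uncalled, was higher on each WK2 array (0.85 ± 0.21, adjusted p = 0.0596). The list median was -0.13, and by mean 36 members were higher in WK2 and 37 lower. On all WK2 arrays 11 (15.1%) lay above control and 17 (23.3%) below, against 23.8% and 13.8% of all features. The 4 calls of this list were kept only without WK2 replicate 1 (adjusted p 0.0612 to 0.148 without 1 array).

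Of 30 vessel genes, 1 fell, and 1.18% of all features were called lower. Sox17, a transcription factor of arterial endothelium, read 2044, 1400.4 and 1937 on the control arrays and 732, 871 and 804 on the WK2 arrays and fell by 1.10 ± 0.17 (adjusted p = 0.0385). Tie1 (-0.79 ± 0.18, adjusted p = 0.0551) and Flt1 (-0.60 ± 0.17, adjusted p = 0.0743), endothelial receptor kinases, were not called, and the vessel growth factor Angpt1 was higher on each WK2 array (0.97 ± 0.30, adjusted p = 0.0824). Of 20 ensheathing glia and myelin genes, 1 fell, again beside 1.18% of all features. Foxd3, a neural crest factor of glial precursors, read 963, 875 and 1045 on the control arrays and 266, 428 and 327 on the WK2 arrays, without overlap, and fell by 1.39 ± 0.18 (adjusted p = 0.0265). Erbb3, the neuregulin receptor (-1.12 ± 0.29, adjusted p = 0.0639), and Fabp7, a marker of ensheathing glia (-0.50 ± 0.17, adjusted p = 0.0941), were not called. Sox17 kept its call without control replicate 2 and Foxd3 without D1 replicate 2, and both without WK2 replicate 1 (adjusted p 0.0508 to 0.148 without 1 array).

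**Figure D5:**
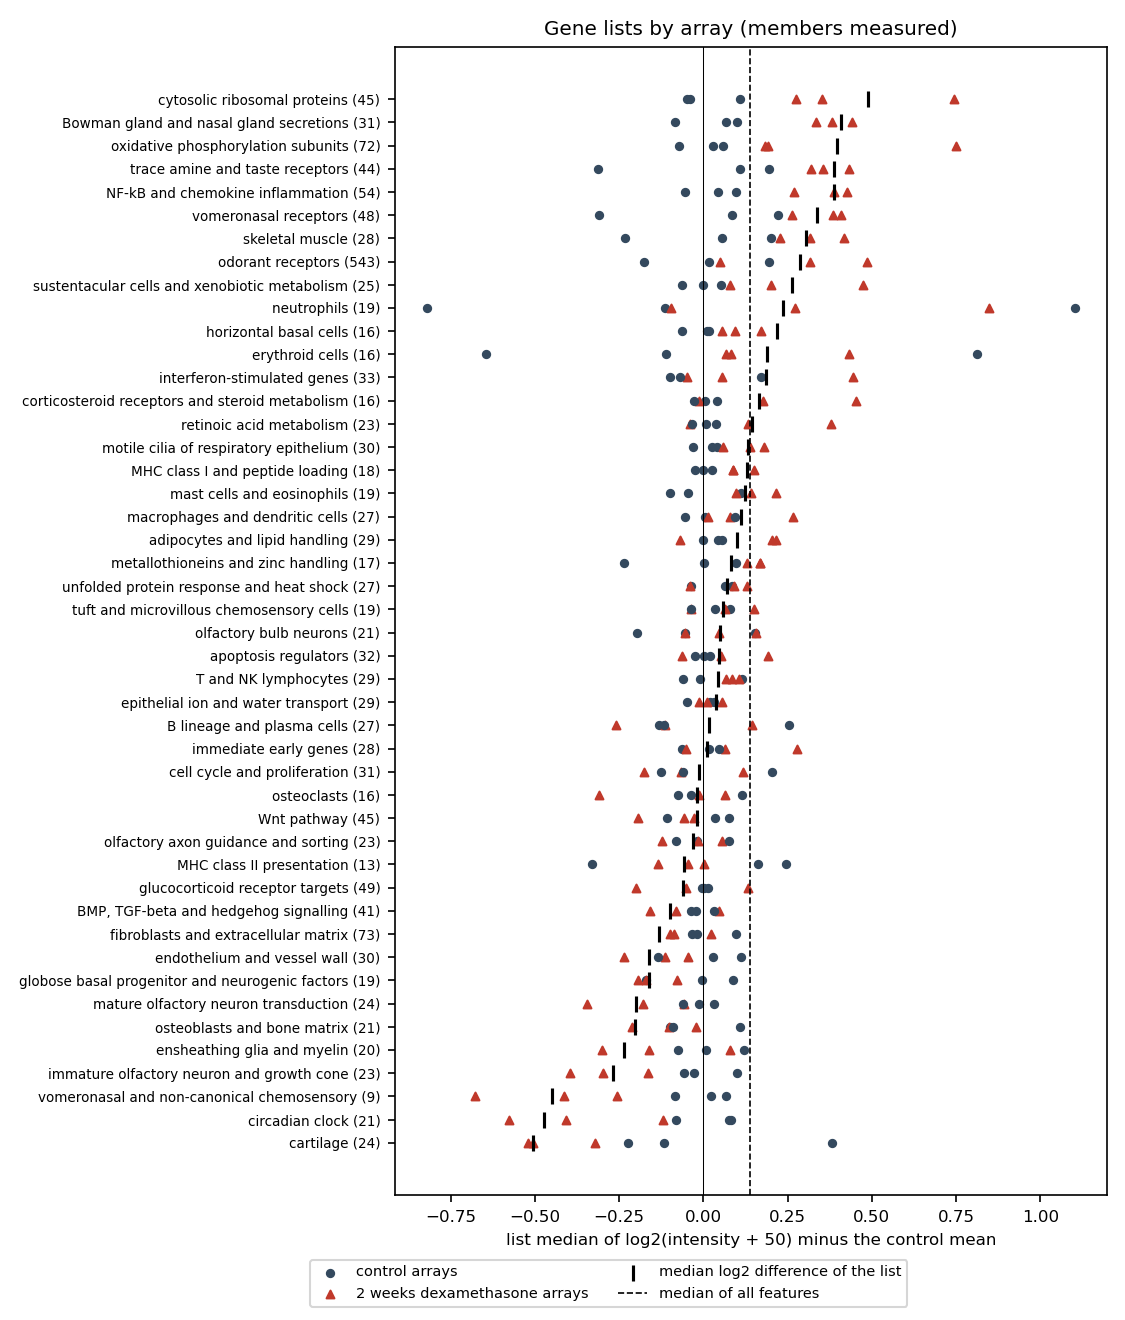
Gene lists, with the number of members measured, and the list median of log2(intensity + 50) minus the control mean on each control array (circles) and WK2 array (triangles). Black ticks are list medians of the log2 difference and the dashed line is the median of all features; ribosomal, gland and respiratory chain genes lie highest and clock and cartilage genes lowest.

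Among called genes, leaving out predicted genes and receptors, those that rose most after Cxcl1 and Ccl20 were Asz1, Btg4 and Ccl11, and those that fell most after Zbtb16 were Wdfy1, Dbp and Safb2. Wdfy1, an endosomal protein that recruits Toll-like receptor adaptors, read 16308, 34808 and 25059 on the control arrays and 5974, 5788 and 3861 on the WK2 arrays and fell by 2.23 ± 0.28 (adjusted p = 0.021); its other probe differed by -0.71. Safb2, a nuclear scaffold protein, read 3757, 4188 and 4197 on the control arrays and 1837, 1227 and 811 on the WK2 arrays and fell by 1.68 ± 0.30 (adjusted p = 0.041). Nphs1, nephrin, fell by 1.60 ± 0.26 (adjusted p = 0.0395) and Nfasc, neurofascin of axon initial segments, fell by 1.48 ± 0.23 (adjusted p = 0.0387), and their other probes differed by -0.71 and -0.39. Palm, a membrane protein of neurites, read 9838, 11607 and 12275 on the control arrays and 4810.2, 5032 and 2533 on the WK2 arrays and fell by 1.49 ± 0.26 (adjusted p = 0.041). Sspo, SCO-spondin, read 537, 455 and 310.3 in WK2 against 1078, 1152 and 1704 and fell by 1.49 ± 0.23 (adjusted p = 0.0349). Wdfy1 kept its call in 6 single-array fits, Nfasc in 2 and the others only without WK2 replicate 1, with adjusted p of 0.0619 to 0.148 without 1 array.

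Btg4, an adaptor of mRNA deadenylation known from oocytes, read 888, 564.5 and 629 on the control arrays and 2474, 2278 and 3480.5 on the WK2 arrays, well apart, and rose by 1.91 ± 0.22 (adjusted p = 0.0176). Muc15, a membrane mucin, read 279.6, 250.1 and 167.5 on the control arrays and 776, 670.5 and 788 on the WK2 arrays and rose by 1.51 ± 0.17 (adjusted p = 0.0176). Eda2r, a TNF receptor family member, read 6019, 7695 and 6759 on the control arrays and 17391, 14441 and 16607 on the WK2 arrays and rose by 1.24 ± 0.16 (adjusted p = 0.0265). Ackr4, a scavenging chemokine receptor, read 5559, 7176 and 4138 on the control arrays and 14933, 12009 and 17038 on the WK2 arrays and rose by 1.40 ± 0.21 (adjusted p = 0.0349). Vgf, a neuropeptide precursor, read 3543, 2327 and 1673 on the control arrays and 5794, 8417 and 6112 on the WK2 arrays and rose by 1.46 ± 0.26 (adjusted p = 0.041), and Tubb2a, a beta-tubulin, read 19321.5, 10985 and 19948 on the control arrays and 39077, 38769.7 and 41294 on the WK2 arrays and rose by 1.29 ± 0.21 (adjusted p = 0.0395). Control replicate 2 was the lowest control array for Tubb2a. Btg4 and Muc15 kept their calls in 6 single-array fits, Eda2r in 4, Ackr4 and Tubb2a in 2 and Vgf only without WK2 replicate 1, with adjusted p of 0.0508 to 0.148 without 1 array.

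Several of the largest increases were of dim probes. Asz1, a germ cell protein, read 203, 71.9 and 194.5 on the control arrays and 578, 1407 and 447 on the WK2 arrays, Gpr139, an orphan receptor, 228, 126 and 143 on the control arrays and 478, 727 and 378 on the WK2 arrays, and Hsd3b1, an enzyme of steroid synthesis, 227, 103.5 and 243 on the control arrays and 425, 861 and 526 on the WK2 arrays. These rose by 1.97 ± 0.41, 1.40 ± 0.28 and 1.44 ± 0.29, at adjusted p of 0.0498, 0.0487 and 0.0487. WK2 replicate 2 was the highest array and control replicate 2 the lowest for each. Cldn22, a claudin, read 782, 1235 and 597 on the control arrays and 2341, 2548 and 2506 on the WK2 arrays and rose by 1.51 ± 0.30 (adjusted p = 0.0487), and Ly6g6d, a surface protein of the Ly6 family, rose by 1.64 ± 0.30 (adjusted p = 0.0419). Apart from Ly6g6d, also kept without D1 replicate 1, these calls were kept only without WK2 replicate 1 (adjusted p 0.0666 to 0.148 without 1 array).

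Further bright genes that rose were Adss, an enzyme of AMP synthesis (0.94 ± 0.17), Atg5, which lipidates LC3 in autophagy (0.96 ± 0.17), and Trmt10c, a mitochondrial tRNA methyltransferase (0.92 ± 0.19). Further bright genes that fell were Ttyh3, a membrane protein (-1.35 ± 0.23), Galnt17, a glycosyltransferase (-1.29 ± 0.23), and Fam193b (-1.28 ± 0.23). Their adjusted p-values ran from 0.0395 to 0.0493, and none overlapped between groups. Their calls were kept only without WK2 replicate 1 (adjusted p 0.0641 to 0.148 without 1 array).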

How the data were processed

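The authors deposited 1 table of intensity values on a linear scale, 26423 probes by 9 single-colour (Cy5) arrays. Scanner, software and scaling: not given in the sources used here. Per the labels, 1 µg of total RNA with an integrity number of at least 7 was amplified. Probes were named through the platform annotation, updated by gene ID through RefSeq (GRCm38.p6, 21825 probes matched); 21876 had 1 gene symbol, 0 several and 4547 none. The brightest probe stood for each gene. Of the 50 other probes of called genes, 35 differed with the same sign as the probe used and 15 with the opposite sign. As array medians lay within 0.5 on the log2 scale, no further normalization was applied.

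Values were tested as log2(intensity + 50), which understates changes of dim genes, with limma 3.58.1 in R 4.3.3 (lmFit and eBayes over all 9 arrays, groups Ctrl, D1 and WK2) and Benjamini-Hochberg adjustment over 23631 features. An exact permutation test of 3 arrays against 3 cannot give a p under 0.1. On simulated data for WK2 against control with 23631 features, 44% of 100 genes changed 2-fold and 87% of 100 changed 4-fold were recovered. Of the unchanged features, 7 were called. In the real data 29.8% of features had an unadjusted limma p under 0.05, a far larger share than was changed in the simulation. The simulated rates therefore do not give the recovery or the false calls among the real calls, which were not tested. The comparison, the 46 gene lists and the alternatives were chosen with earlier results of these data known. Genes were named by size of change (15 a direction, and 10 among the brightest 25% of features), as called list members (up to 6 a list), as up to 4 uncalled members of smallest p, and as cell type markers or well-known glucocorticoid targets, leaving out chemoreceptors (up to 3 named), predicted genes and immune receptor segments. Promoter sequences are RefSeq's; under 80% of called genes had a window, so called sets were not compared for motifs.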

Additional observations from a re-analysis of the deposited data

Results flagged for a closer look

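Several of the named genes also differed between the arrays of mice treated for 2 weeks and those treated for 1 day, by a direct limma test of that difference, in which 22 of 23631 features (0.0931%) were called. Both comparisons use the WK2 arrays, so the values are not independent. Among clock genes, WK2 minus D1 was -2.92 for Dbp (adjusted p = 0.00274), -1.60 for Per2 (0.0178), -1.68 for Tef (0.0178), -1.69 for Ciart (0.0275) and 1.80 for Arntl (0.00955). D1 minus control was 0.78 for Dbp, 0.0066 for Per2, 0.050 for Tef, 0.53 for Ciart and -0.51 for Arntl, and none of these 5 was called (adjusted p = 0.9998 for each). The Wnt inhibitor Apcdd1 differed by -1.32 (0.0275) and Wdfy1 by -2.23 (0.0275). The chemokine Ccl20 differed by 2.93 (0.0323), Muc15 by 1.90 (0.00802), Btg4 by 1.70 (0.0301) and Eda2r by 1.27 (0.0275). Groups of 3 arrays are too small for a test of single outlying arrays.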

How the results depend on the processing

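Over 23 alternatives, the 379 calls (101 higher, 278 lower) became 1422 (327, 1095) with quantile normalization, 1544 (222, 1322) with median centring, 680 (167, 513) with cyclic loess, 616 (170, 446) and 1167 (370, 797) without the dimmest 25% and 50% of features, 2748 (1287, 1461) with array weights, 777 (210, 567) and 132 (31, 101) with pseudocounts of 500 and 16, 3609 (1815, 1794) at adjusted p under 0.1, and 185 (54, 131) at 2-fold or more; trend and robust moderation gave 259 (67, 192). With the mean of a gene's probes the count moved by less than 1.5 times. The 6 arrays alone gave 0 calls. With the replicate number as a block there was 1 call, Dbp (0 higher, 1 lower). Deviations of control and WK2 arrays of the same number correlated at -0.090, -0.0017 and 0.13, and those of different numbers at -0.21 to 0.22. With 3 arrays a group these values cannot tell whether the numbers pair the samples. Leaving out each array gave 1 to 966 calls, 0 to 241 higher and 0 to 725 lower. Of the 379, 362 were also called with quantile normalization and 374 with median centring. Quantile normalization moved the median of all features from 0.14 to 0.0094. The sign turned for Cyp2g1 (-0.029, quantile normalization), Nr3c1 (-0.018 with median centring, -0.083 with array weights, -0.0067 without control replicate 1, -0.11 without WK2 replicate 3, from -0.11 to 0.26 with single arrays left out) and Tsc22d3 (0.030 without WK2 replicate 2, from -0.46 to 0.030 with single arrays left out). For the 171 genes named with values, 3890 alternative values were computed: 2824 kept direction and side of the threshold, 688 lost the call, 372 gained one and 6 changed sign. The cause of these changes was not tested, beyond the fewer features tested without the dimmest. Signal over background limits the dimmest 25% of features, where differences are held down.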

Other observations

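Among 19 neutrophil genes limma made no call. Their array medians were -0.82, 1.10 and -0.11 in control and 0.85, 0.27 and -0.094 in WK2, so that the control arrays spanned all WK2 arrays. On all WK2 arrays 0 members lay above control and 1 (5.26%) below, against 23.8% and 13.8% of all features. The member below was Mmp9 (-0.87 ± 0.23, adjusted p = 0.0644). Macrophage and dendritic cell genes (27), T and NK cell genes (29), B lineage genes (27) and MHC class II genes (13) had no calls, with medians of 0.11, 0.045, 0.017 and -0.059. For the last 2 lists the mean differed in sign from the median (-0.017 and 0.034). On all WK2 arrays 7 macrophage and dendritic cell genes (25.9%) lay above control and 2 (7.41%) below. These shares were 6.9% and 10.3% for T and NK cells, 14.8% and 14.8% for B lineage, and 15.4% and 7.69% for class II genes. Members lower on all WK2 arrays included Cx3cr1 of monocytes (-0.64 ± 0.18, adjusted p = 0.0702) and Cd3e of T cells (-0.74 ± 0.23, adjusted p = 0.0854). They also included Spib of B cells (-1.37 ± 0.30, adjusted p = 0.0521) and Cd74, the invariant chain of class II presentation (-0.98 ± 0.34, adjusted p = 0.106, with -0.53 and -1.08 on its other probes). Adgre1 of macrophages (0.58 ± 0.21, adjusted p = 0.11) and the class II chain H2-Ea (1.32 ± 0.35, adjusted p = 0.0645) were higher. Among 33 interferon-stimulated genes 1 fell, and 1.18% of all features were called lower. It was Stat2, which read 3078, 2990.5 and 3629.5 on the control arrays and 2084, 1544.5 and 1481 on the WK2 arrays. Stat2 differed by -0.92 ± 0.18 (adjusted p = 0.0467), a call kept only without WK2 replicate 1 (0.0662 to 0.148 otherwise).

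Skeletal muscle genes were above control for 24 of 28 members, with array medians of 0.055, -0.23 and 0.20 in control and 0.23, 0.42 and 0.32 in WK2, and no call. Myog, a muscle differentiation factor, read 1245, 568 and 1026 on the control arrays and 3740.2, 10075 and 1974 on the WK2 arrays (2.16 ± 0.58, adjusted p = 0.0667), and myoglobin, Mb, differed by 0.98 ± 0.25, adjusted p = 0.0629, and by 0.18 on its other probe, while the defining markers Acta1 and Ckm overlapped between groups. Adiponectin, Adipoq, a fat cell hormone, read 852, 1877 and 1708 on the control arrays and 2860.3, 2891 and 5546 on the WK2 arrays (1.32 ± 0.35, adjusted p = 0.0659), in a list of 29 with a median of 0.10 and no call. The 28 immediate early genes had no call and a median of 0.011. On all WK2 arrays 10 (35.7%) lay above control and 3 (10.7%) below, against 23.8% and 13.8% of all features. Nr4a1 differed by 1.05 ± 0.29, adjusted p = 0.0683, Fosl1 by 1.05 ± 0.26, adjusted p = 0.0596 and Klf2 by -0.67 ± 0.18, adjusted p = 0.0664. Of 32 apoptosis regulators none was called. On all WK2 arrays 5 of them (15.6%) lay above control and 9 (28.1%) below, against 23.8% and 13.8% of all features. Bcl2 (-0.48 ± 0.14, adjusted p = 0.0798) and Bcl2l1 (-0.78 ± 0.23, adjusted p = 0.0768), which protect cells, and Bmf, which promotes death (-0.59 ± 0.16, adjusted p = 0.0656), were lower on each WK2 array, and Bik, which promotes death, was higher (0.61 ± 0.17, adjusted p = 0.0683).

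In these lists without a limma call, members at an unadjusted p under 0.05, the share of which is 29.8% over all features, numbered 2 of 19 neutrophil genes, 4 of 27 macrophage and dendritic cell genes, 4 of 29 T and NK cell genes, 7 of 27 B lineage genes, 3 of 13 MHC class II genes, 8 of 28 muscle genes, 7 of 29 fat cell genes, 12 of 28 immediate early genes and 10 of 32 apoptosis regulators. Nor was any call made by limma in the genes of tuft and microvillous cells, MHC class I presentation, epithelial ion and water transport, red blood cells and olfactory bulb neurons, whose medians were 0.06, 0.13, 0.039, 0.19 and 0.048, with 3 of 19, 2 of 18, 9 of 29, 0 of 16 and 1 of 21 members at an unadjusted p under 0.05.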
